A study of Citrullus lanatus with 12 samples.

Results

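Of 23440 watermelon (Citrullus lanatus) genes measured in developing anthers, 72 were high at both middle stages of pollen development and lower at both ends. They were chosen on the deposited log2 values, averaged over the 3 libraries of each stage. The higher of the mononuclear and dikaryophase means had to reach 8 on the log2 scale, which is 255 normalised reads (read counts divided by a factor for the library). The lower of these means had to lie at least 1.5 log2 units, or 2.83-fold, above the higher of the tetrad and mature means. The mononuclear mean had to be less than 1.5 above the dikaryophase mean, and the dikaryophase mean less than 0.6 above the mononuclear mean. Because the stage means chose these genes, the levels at the middle stages against the ends, and of the middle stages against each other, are descriptions without a test. The difference between the mature and tetrad ends was not used in the choice and is the contrast that was tested.

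Anthers came from progeny of the variety Xinteda Zhengkang 9, grown in a greenhouse with no treatment named in the labels, and each was staged under the microscope on a portion of its tissue while RNA was taken from the rest. There were 12 libraries in 4 groups of 3, labelled tetrad, mononuclear, dikaryophase and mature. The labels do not say whether the libraries of a stage came from different plants, so p-values rest on the spread between these samples alone, which may be technical. The libraries held 55347640 to 65554998 reads assigned to genes, and 17484 genes, all 72 members among them, passed the filter of 1 CPM (counts per unit of library size, equal to 55.3 to 65.6 reads) in at least 3 libraries. The members could pass it through the stages at which they are high.

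In a flowering plant the products of meiosis first lie together as a tetrad inside a callose wall, from which the microspores are released. Each microspore then has a single nucleus and adds to its patterned outer wall with material from the tapetum, the innermost layer of the anther wall. It divides unequally into a vegetative and a generative cell. The tapetum breaks down as the grain fills with reserves and matures. The middle stages therefore take in a part of wall building and the first pollen mitosis. RNA of a whole anther holds transcripts of pollen and of anther wall alike. In such bulk RNA fewer cells of a type and less RNA per cell cannot be told apart. The sources used here do not pair the gene identifiers with names, so genes are given by identifier with no function, and the labelled tissue could not be checked against marker genes.

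The 72 genes together took 0.120%, 0.130% and 0.0988% of all reads in the tetrad libraries, 1.70%, 1.30% and 2.19% in the mononuclear libraries, 1.25%, 1.25% and 1.48% in the dikaryophase libraries and 0.250%, 0.207% and 0.272% in the mature libraries, each in the order of replicates 1 to 3. The stage means were 0.116% ± 0.0160 for tetrad, 1.73% ± 0.446 for mononuclear, 1.33% ± 0.131 for dikaryophase and 0.243% ± 0.0331 for mature anthers (SD, n = 3 each). Every middle library thus held a larger share than any end library, as the choice of genes implies, while the mononuclear and dikaryophase libraries overlapped. The mature libraries lay above the tetrad libraries without overlap. A few genes made up much of this share: 3 of the 72 held 49.2%, 53.5% and 50.9% of the members' reads in the mononuclear libraries, and 37.7%, 39.3% and 41.1% in the mature ones.

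**Figure D1:**
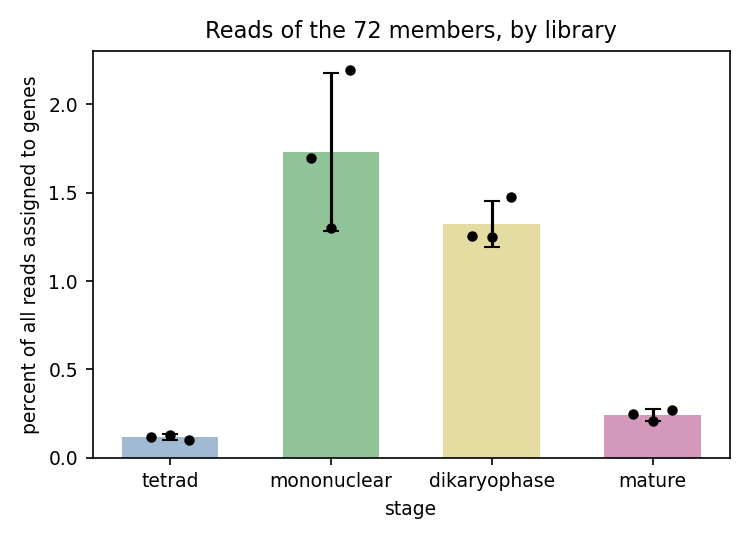
Percent of all reads assigned to genes that fell on the 72 members (vertical axis) at the 4 stages (horizontal axis); points are libraries, bars their means and error bars the SD of 3 libraries. The mononuclear libraries spread from 1.30% to 2.19%, and the tetrad and mature libraries all lie below 0.3%.

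The median member had log2 values of 7.71 (tetrad), 11.91 (mononuclear), 11.67 (dikaryophase) and 8.99 (mature). The medians over all tested genes were 10.39, 10.36, 10.37 and 10.41, nearly level under the deposited scaling. The lower middle mean exceeded the higher end mean by a median of 2.15 log2 units, with a range of 1.54 to 7.92, and by at least 3 units in 15 genes and at least 4 units in 8. In 71 of the 72 genes (98.6%) all 6 middle libraries lay above all 6 end libraries, which held for 2.35% of all tested genes; the choice of members nearly fixes this count. The exception was Cla015111, with a log2 value of 10.29 in mononuclear replicate 2 and 10.30 in mature replicate 3. The lowest middle library of a gene was at least 1 log2 unit above its highest end library in 57 members. The choice largely sets this count too, and the share over all tested genes was not worked out.

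**Figure D2:**
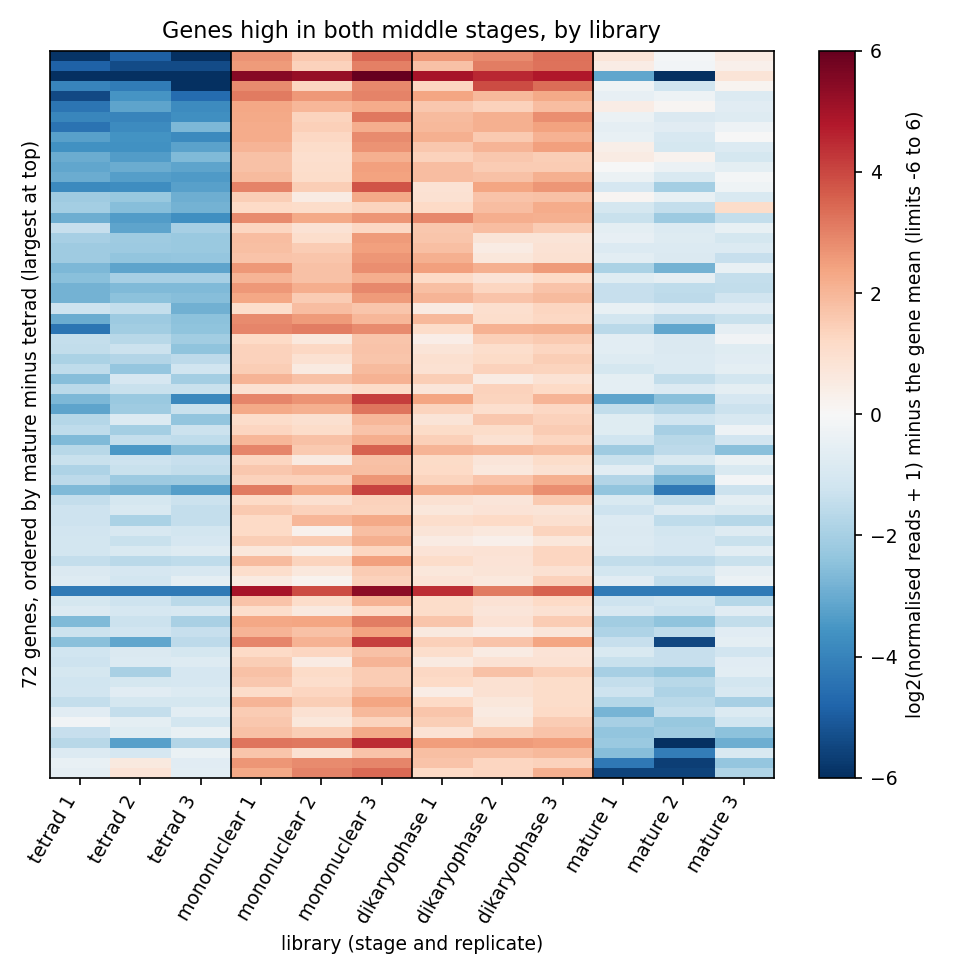
Log2(normalised reads + 1) of the 72 members (rows, ordered by mature minus tetrad, largest at the top) in the 12 libraries (columns), with the mean of each gene subtracted; colours stop at -6 and 6. Middle libraries are red in nearly every row; tetrad libraries are bluer than mature ones at the top of the map, and mature libraries bluer than tetrad ones at the bottom.

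The balance of the middle stages leaned to the earlier one: 56 members had their highest mean at the mononuclear stage and 16 at the dikaryophase. The mononuclear minus dikaryophase difference had a median of 0.44 and ran from -0.57 to just under the limit of 1.5, and in 34 members the middle means lay within 0.5 of each other. The limits on this difference are themselves uneven (1.5 against 0.6), so the lean is partly set by the choice. Cla001700 lay closest to the mononuclear limit, with 204, 228 and 191 normalised reads in tetrad, 2075, 1687 and 2719 in mononuclear, 756, 673 and 826 in dikaryophase and 141, 173 and 315 in mature libraries. Cla015111 lay closest to the dikaryophase limit, with 143, 99.5 and 80.8, then 1341, 1254 and 1474, then 1367, 2119 and 2813, and last 280.1, 218 and 1264 normalised reads at the same 4 stages. In Cla001700 the mononuclear libraries were all above the dikaryophase ones. In Cla015111 the middle stages overlapped, and mature replicate 3 reached the range of the mononuclear libraries.

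At the edges of the choice, the 2 members with the smallest gap between middle and end means had 1.54 and 1.54, and the 2 genes just below it had 1.45 and 1.45. For the level, the 2 lowest members had 8.03 and 8.43 and the 2 genes just below the floor 7.91 and 7.81. Besides the 72 members, 25 genes met the floor and the gap but not the balance of the middle stages: 12 had a mononuclear mean at least 1.5 above the dikaryophase and 13 the reverse by at least 0.6. The nearest of them stood at 1.51 on the mononuclear side and 0.601 on the dikaryophase side.

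Cla019330, Cla002945 and Cla005445 had the highest mean of the middle stages in reads, which are not scaled to gene length. Cla019330 had 28415, 32779.7 and 15173 normalised reads in tetrad, 206981, 187207 and 261457 in mononuclear, 134708, 165713 and 193025 in dikaryophase and 51938, 43177 and 48651 in mature libraries. It was abundant at every stage, and its stage means of 25456 ± 9169, 218548 ± 38453, 164482 ± 29178 and 47922 ± 4426 (SD, n = 3) gave it a gap of only 1.77 log2 units. Its mature libraries were above its tetrad libraries, but the log2 difference of 0.98 ± 0.26 (SE, limma adjusted p = 0.00911) was under the fold threshold of 1.

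Cla002945 had the second-widest gap, 7.73. It had 17.0, 40.6 and 31.5 normalised reads in tetrad, 217887, 183508 and 369891 in mononuclear, 151702, 113433 and 135603 in dikaryophase and 565, 50.1 and 8425 in mature libraries. Its mononuclear mean was 13.05 log2 units above its tetrad mean, while its mature libraries ranged over more than 7 log2 units, with replicate 3 the highest. It held 0.384% ± 0.135 of all mononuclear reads and 0.223% ± 0.0285 of dikaryophase reads (SD, n = 3). Cla005445 was steadier at both ends, with 2622, 3038 and 3033 in tetrad, 116047, 86044 and 139389 in mononuclear, 66450.1, 46836 and 62782 in dikaryophase and 7329.7, 6700.4 and 6727 normalised reads in mature libraries. Its stages did not overlap at all.

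Cla002260 was the only member without a read at the ends. It had 0 reads in each tetrad library, 553, 246 and 738 in mononuclear, 415, 170 and 229 in dikaryophase and 0 in each mature library. With 3 reads over the whole stage taken as the floor, its mononuclear level in CPM was at least 498-fold higher than the tetrad level and at least 493-fold higher than the mature level. The dikaryophase level was at least 265-fold and at least 263-fold higher; these bounds cover counting error only. Cla007663 had the third-widest gap, 5.05, with 92.5, 82.2 and 59.1 normalised reads in tetrad, 5202, 2843 and 9881 in mononuclear, 2698, 2870.5 and 4109 in dikaryophase and 115, 29.5 and 245 in mature libraries. Like Cla002945 it was highest in replicate 3 at both the mononuclear and the mature stage.

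**Figure D3:**
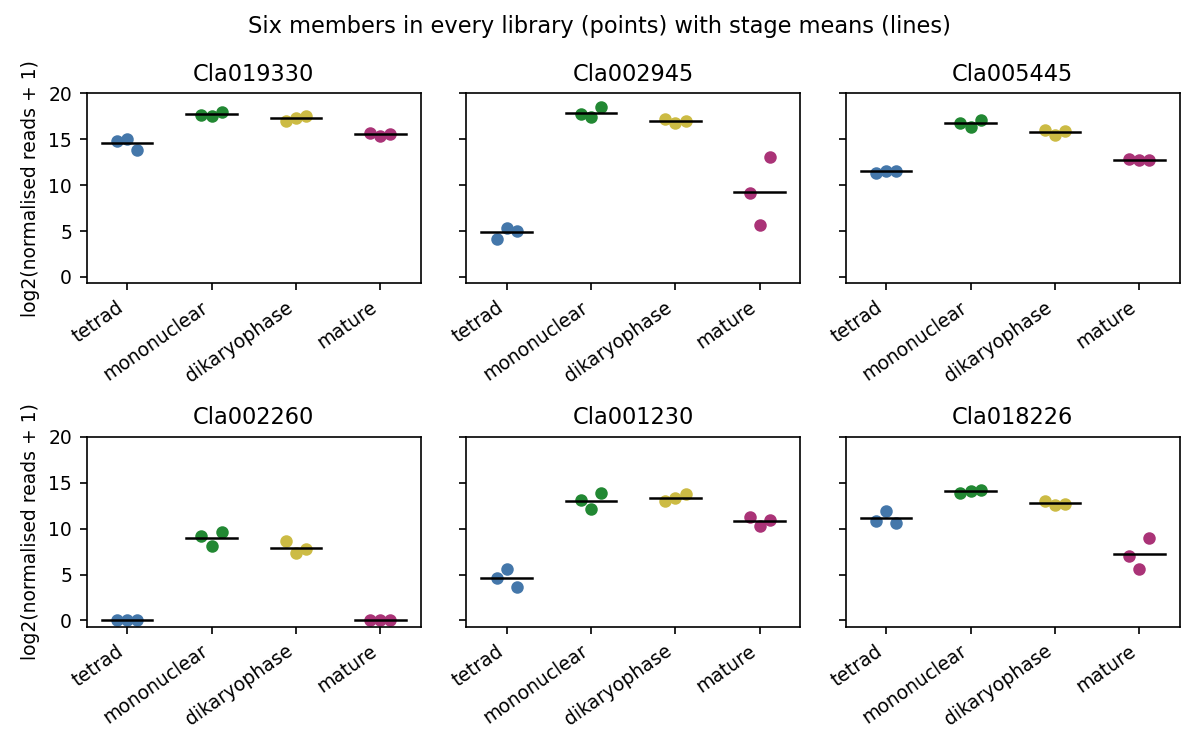
Log2(normalised reads + 1) of 6 members (vertical axis) at the 4 stages (horizontal axis); points are the 3 libraries of a stage and lines their means. Cla002260 lies at 0 in every end library, the mature libraries of Cla002945 are spread from 5.68 to 13.04, and Cla001230 and Cla018226 differ in which end is the lower.

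Most of the members that differed between the ends of the series were higher in mature anthers. Of the 72 members, 27 (37.5%) were higher in mature than in tetrad anthers and 5 (6.94%) were lower (limma, Benjamini-Hochberg adjusted p under 0.05 over all tested genes with a log2 fold change of 1 or more in either direction). Among all 17484 tested genes 10.2% were higher and 10.2% were lower. The log2 difference had a median of 0.69 over the members and -0.01 over all tested genes, and the mature mean was above the tetrad mean in 53 members (73.6%) and in 49.5% of all tested genes. All 3 mature libraries lay above all 3 tetrad libraries in 31 members (43.1%) and below them in 5 (6.94%), against 28.1% and 28.6% of all tested genes. These shares describe the members beside all genes, and no test of the set was made.

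The 27 members higher at maturity differed from tetrad by log2 values of 1.14 to 6.23, with a median of 2.50. Cla001230 had the largest rise. It had 2439, 1299 and 2000.4 normalised reads in mature libraries, against 23.6, 46.7 and 11.8 in tetrad libraries, a log2 fold change of 6.23 ± 0.50 (SE, n = 3 each, limma adjusted p = 1.84e-06). Its mononuclear libraries held 9204, 4370.5 and 15505 and its dikaryophase libraries 8558, 10331 and 13969.9, so the gene was some way below its peak at maturity and nearly absent at the tetrad stage. Cla012342 was alike, with 3173, 2067 and 2875 normalised reads in mature libraries against 80.2, 54.8 and 56.2 in tetrad libraries (log2 fold change 5.38 ± 0.44, limma adjusted p = 2.14e-06). Cla005445, described above, rose by a log2 value of 1.26 ± 0.17 (limma adjusted p = 0.000120).

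Cla002945 was also called higher at maturity, with a log2 fold change of 4.43 ± 1.29 (limma adjusted p = 0.0159), but the call was lost in 3 of 22 alternatives. Without tetrad replicate 1 the adjusted p was 0.0559, with the tetrad and mature libraries alone it was 0.0592, and with limma-voom on the recovered reads it was 0.280. Mature replicate 3 held 8175 of its reads, against 579 and 51 in replicates 1 and 2. Without mature replicate 3 the log2 fold change was smaller, at 2.55, and the gene was still called (limma adjusted p = 0.0214). Over all 22 alternatives its adjusted p ran from 0.000222 to 0.280.

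The 5 members lower at maturity differed by log2 values of -1.18 to -4.20. Cla004721 had 0, 0 and 12.4 normalised reads in mature libraries, against 31.1, 83.2 and 29.6 in tetrad libraries (log2 fold change -4.20 ± 0.88, SE, limma adjusted p = 0.00233). It was also a member with few reads at its peak, with 228, 367 and 488 in mononuclear libraries. Cla018226 was much more abundant, with 129.8, 49.1 and 513 normalised reads in mature libraries against 1854, 3817 and 1558 in tetrad libraries (log2 fold change -3.89 ± 0.63, limma adjusted p = 0.000407). It stood at 15724, 18013 and 19197 in mononuclear and 8361, 6126 and 6577 in dikaryophase libraries. In both genes mature replicate 3 was the highest mature library. With each mature library left out in turn the log2 fold change of Cla004721 was -3.58 to -5.45 and that of Cla018226 was -3.10 to -4.78, the larger falls without replicate 3, and both calls remained. Cla005955 was less stable (log2 fold change -1.80 ± 0.59, limma adjusted p = 0.0279), with 797, 261 and 2492 normalised reads in mature libraries. It was not called in 7 of 22 alternatives, with a limma adjusted p of up to 0.0878. Cla022542, also called lower, kept its call in all 22.

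**Figure D4:**
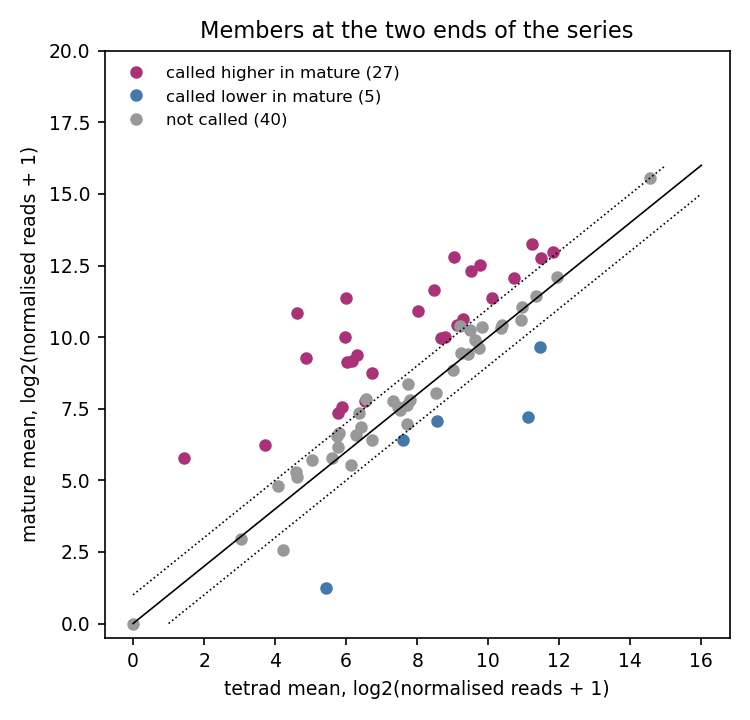
Mean log2(normalised reads + 1) of each of the 72 members in mature (vertical axis) and tetrad (horizontal axis) anthers; the solid line marks equal values, the dotted lines a difference of 1, and colours the limma call. The 27 genes called higher at maturity spread widely above the line, and 5 genes are called lower.

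The other 40 members were not called. Of these, 37 differed by less than 1 log2 unit, and the mature mean was above the tetrad mean in 26 and below it in 13. They include Cla002260, with no read at either end, and Cla007663 (log2 fold change 0.30 ± 0.63, limma adjusted p = 0.739). The mononuclear mean was above the dikaryophase mean in 17 of the 27 members called higher at maturity and in 36 of the 40 not called. The size of that difference, without its sign, was close in both, with medians of 0.50 and 0.60 and with middle means within 0.5 of each other in 13 and 18 members. Across the 72 members the mononuclear minus dikaryophase difference was set beside the mature minus tetrad difference. These differences share no library, but all 4 stage means entered the choice of members. They had a Pearson's r of -0.39 and a Spearman's rho of -0.31, given as a description. The part of the choice in these values was not tested. Outside the limits of balance, the 13 genes with a higher dikaryophase had a median mature minus tetrad difference of 3.52, with 7 called higher (53.8%). The 12 genes with a much higher mononuclear stage had 0.91, with 3 called higher (25%). The members between them had 0.69 and 37.5%, so the median did not fall steadily with the lean to the mononuclear stage. Of all tested genes 10.2% were called higher. No difference between these sets was tested.

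The members moved together between libraries of the same stage. Mononuclear replicate 3 held the highest of the 3 mononuclear values in 59 of 72 members (81.9%), against 38.9% of tested genes, and replicate 2 the lowest in 60 (83.3%), against 28.5%. The difference between replicates 3 and 2 had a median of 0.90 log2 units, reached at least 1 in 33 members (45.8%), and was positive in 67; over all tested genes its median was -0.0015 and 2.13% reached 1. At maturity replicate 3 was highest in 41 of 71 members with unequal values (57.7%, against 40.4% of tested genes), and replicate 2 lowest in 50 (70.4%, against 28.8%). In the dikaryophase, replicate 3 was lowest in 6 members (8.33%, against 30.0%). Tetrad libraries showed no such order, with 24, 26 and 21 members highest in replicates 1, 2 and 3.

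At every stage the members spread more between replicates than all tested genes did. The median SD of a member over the 3 libraries in log2 units was 0.32 (tetrad), 0.50 (mononuclear), 0.28 (dikaryophase) and 0.42 (mature), and the medians over all tested genes were 0.12, 0.21, 0.19 and 0.20. Levels were not matched in this comparison: the median member lay below the median tested gene at both ends and above it at the middle stages. An SD over 1 was not counted over all tested genes. It was found for 2 members across tetrad libraries, 3 across mononuclear, 1 across dikaryophase and 13 across mature libraries. In 12 of these 13 the highest mature library was replicate 3. Of the 13, 8 were among the 40 members not called between the ends. Another 2 were among the 27 called higher, and 3 were among the 5 called lower. The libraries' place within their stage was not measured apart from expression, and its part in these differences was not tested. Without mononuclear replicate 2 and mature replicate 3, a choice made after the values were seen, 26 members were higher and 5 lower at maturity than at the tetrad stage. Leaving out mature replicate 3 alone gave the same counts, and leaving out mature replicate 2 alone gave 32 higher and 3 lower.

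**Figure D5:**
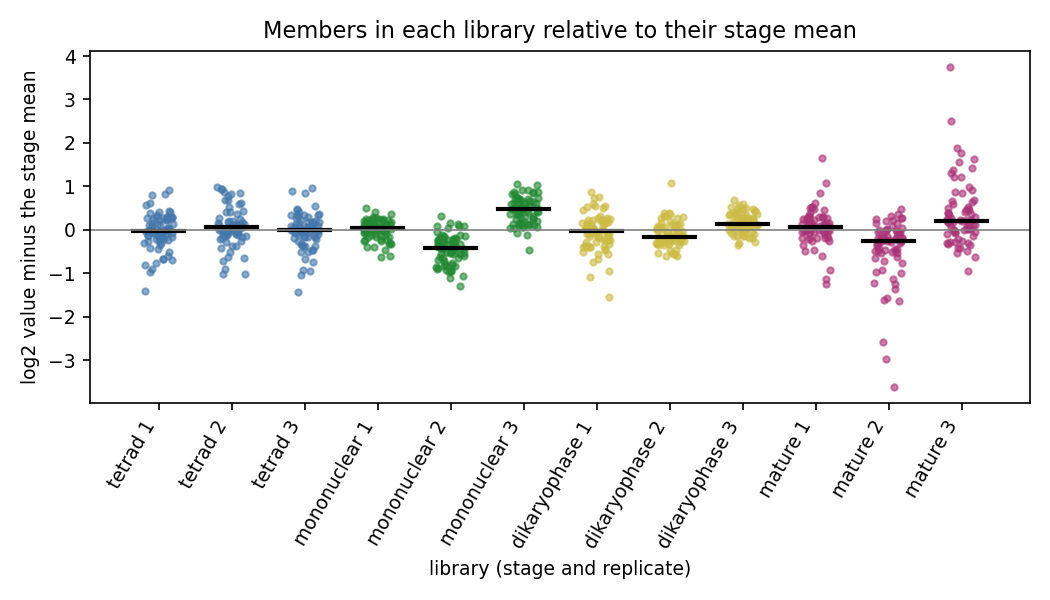
Log2 value of each of the 72 members minus its own stage mean (vertical axis) in the 12 libraries (horizontal axis); points are genes and thick bars the median of a library. The median is -0.42 in mononuclear replicate 2 and 0.48 in mononuclear replicate 3, and single genes reach furthest from 0 in mature replicates 2 and 3.

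The profile was also looked for with the libraries of 1 replicate number left out of the choice. The limits themselves were set with earlier results of these data known. Libraries of a stage may also come from the same plants, so the counts are a description and no independent check. When the genes were chosen without replicate 1 of any stage, 68 genes met the limits, 63 of them members. In the 4 libraries left out, both middle libraries lay above both end libraries in 67 of the 68, by at least 1.5 log2 units in 52, against 16.2% and 0.772% of all tested genes. Choosing without replicate 2 gave 94 genes, of which 90 kept this order in the replicate 2 libraries and 61 kept the gap, against 13.3% and 0.606% of tested genes. Choosing without replicate 3 gave 63 genes, all of which kept the order and 57 the gap, against 15.2% and 0.921%. The median gap in the libraries left out was 1.96, 1.74 and 2.17 log2 units for replicates 1, 2 and 3, beside 2.02, 2.20 and 2.17 in the libraries used to choose. The gap fell short of the choosing libraries most for replicate 2. Among the 72 members, mononuclear replicate 2 was lowest of its stage in 60 (83.3%), and dikaryophase replicate 2 in 37 (51.4%). Mature replicate 2, an end library, was also lowest in 50 of 71 members with unequal values (70.4%). The part of each library in the shortfall was not tested.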

How the data were processed

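The authors deposited 1 table of log2 values, with genes in rows and libraries in columns. How reads were aligned and counted, on which strand, genome build and annotation, is not given in the sources used here; values of near-identical or overlapping genes are uncertain for that reason. Within a tolerance of 0.01 reads, 2 to the power of each deposited log2 value, less 1, was a whole multiple of 1 step per library, so the values are log2(reads / factor + 1), with a factor per library of 0.887 to 1.07. Reads and CPM were recovered from these steps. Counting error is small at this depth, but 4 members had under 10 reads in a mature library and 5 in a tetrad library.

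Groups and replicate numbers came from the labels. Mature against tetrad was fitted with limma (3.58.1, R 4.3.3) on the deposited log2 values, in a model with 4 stage means and all 12 libraries, leaving 8 residual degrees of freedom, with a variance trend, and adjusted by Benjamini-Hochberg over 17484 genes. The log2(value + 1) scale of the fold changes understates changes of low genes. The fit was also run on simulated data with known changes, with the outcome not given here. Each simulated gene had the same spread and baseline level at every stage, unlike the members, so the run does not show how the fit performs for them. Members, lists and tests were chosen with earlier results of these data known.

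The genes open to naming were the 8 members with the highest middle mean, the 5 with the largest gap, the 4 called with the largest difference each way between mature and tetrad, and those at the limits of the choice; since identifiers have no names, fewer are printed. Planned comparisons of gene groups, markers and promoters need gene names and were not made. Alternatives covered scaling, filter, pseudocount, test, samples, replicate block and each library left out.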

Additional observations from a re-analysis of the deposited data

How the results depend on the processing

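The number of members called between mature and tetrad anthers, 32, ranged from 25 to 35 over 23 alternatives, with 21 to 32 higher and 3 to 5 lower, and from 29 to 35 with each library left out. The fewest came from limma-voom on the recovered reads. With the replicate block 33 members were called (28 higher, 5 lower) and 3598 of all genes; same-numbered tetrad and mature libraries deviated with correlations of -0.0581 to 0.0253, so the numbers are not taken as pairs in this comparison. Between mononuclear and dikaryophase libraries the same numbers gave 0.113, 0.150 and 0.175 and other numbers -0.130 to -0.0142. This is a hint of shared numbers there from the data and not from the labels. Deviations cancel out within a stage, so the values of same and other numbers are not independent. Between dikaryophase and mature libraries the same numbers gave -0.0640 to 0.364 and other numbers -0.296 to 0.282, which overlap. Of all genes 3576 were called, and 7440 with adjusted p alone. Another scaling moved the median of all genes to at most -0.05 log2 units (quantile normalisation), and all 32 calls remained under the 3 scalings tried. The number of genes meeting the choice was 42 with a gap of 2, 93 with a gap of 1.2 and 67 with library size as the only scaling (65 of them members); it ran from 63 without mononuclear replicate 3 to 86 without mononuclear replicate 2, and was 81 without mononuclear replicate 2 and mature replicate 3. Without the member with the most reads the share of all reads was 0.0744% at the tetrad stage, 1.05% at the dikaryophase and 0.164% at maturity. Depth is no limit at the middle stages; near 0 reads at the ends, as for Cla002260, no difference could be seen.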
